A study of Mus musculus with 8 samples.

Results

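The comparison of stomach from Lgals8-null mice with stomach from wild-type mice at 3 weeks of age rests on 4 of the 8 RNA-seq libraries of the study, 2 of each genotype. The libraries were chosen by their genotype and age labels alone, and all 40481 gene IDs of the count table entered the comparison. After low counts were filtered, 19647 genes were tested. The wild-type group is C57BL/6J mice, and the knockout group is labelled Lgals8 null with no further detail of the allele. The sources used here do not give the strain on which the null allele was kept, the sex of the mice, or whether replicates come from separate animals. Every p-value below therefore measures the spread between these samples, which may be technical. The other 4 libraries are wild-type and knockout stomach at 8 weeks. They share in the estimate of the spread and give the later age beside each result. The groups are named WT and KO with the replicate number taken from the sample titles, which number only the second sample of a group.

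Lgals8 encodes galectin-8, a lectin with a pair of carbohydrate recognition domains that binds beta-galactosides, with a preference for sialylated and sulfated ones. Outside the cell it binds glycans on integrins and other surface receptors. In the cytosol it marks endosomes and lysosomes whose membranes have broken and so exposed their inner glycans, and it draws the autophagy machinery to them. The gastric glands of the mouse, with their acid-secreting parietal cells, pepsinogen-secreting chief cells and mucous cells, are still maturing around weaning.

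The 3-week libraries held 61800144 to 77758350 counts. They carried the defining transcripts of glandular stomach in both genotypes. The proton pump gene Atp4a was at 11000 and 11100 CPM (counts divided by library size, scaled by the trimmed mean of M values) in WT and 10200 in both KO libraries, and Pgc, the pepsinogen C gene, at 88700 and 89900 CPM in WT and 68400 and 73000 CPM in KO. Lipf, a gastric lipase gene, was listed at 0 in all 4. Libraries also differed in transcripts of other tissues, whose source was not tested. The summed level of 17 squamous forestomach genes was 1050 CPM in WT replicate 1 and 1190 CPM in KO replicate 1, against 173 and 182 CPM in the replicates 2. The sum of 15 smooth muscle genes was also higher in the replicates 1 (7930 and 9830 CPM) than in the replicates 2 (5560 and 6900 CPM). Hepatocyte transcripts stood apart in KO replicate 2, where 22 genes summed to 1770 CPM against 136 to 160 CPM in the other 3 libraries. Striated muscle transcripts stood apart in KO replicate 1, at 93.7 CPM against 24.9 to 30.3 CPM elsewhere. No member of these 4 lists passed in either edgeR fit described below, while DESeq2 gave the hepatocyte gene Cyp2c29 an adjusted p of 9.3e-05.

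**Figure D1:**
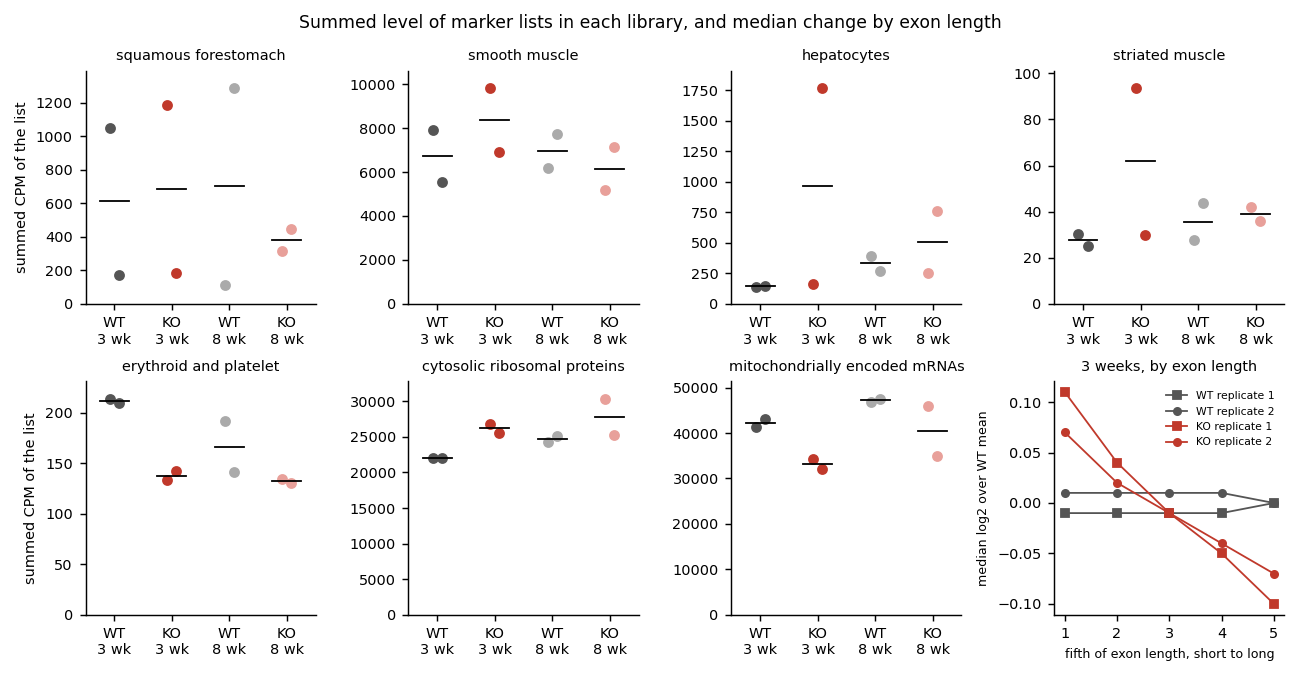
Summed CPM of 7 gene lists in each of the 8 libraries (points, with the mean of 2 as a line, axes from 0), and the median log2 change of protein-coding genes over the mean of the 3-week WT libraries in 5 bins of exon length. Hepatocyte transcripts stand out in KO replicate 2 and striated muscle transcripts in KO replicate 1, while erythroid, ribosomal protein and mitochondrially encoded transcripts separate the genotypes at 3 weeks.

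Lgals8 itself (ENSMUSG00000057554, chr13:12439415-12464944, GRCm38) was at 34.6 and 33.9 CPM in WT and at 1.7 and 2.78 CPM in KO. The groups stand far apart, and a low level of its transcript remained in both knockout libraries. Its mean level was 15.3-fold lower, with a log2 fold change of -3.94 (SE 0.40). The edgeR adjusted p was 0.13 with the spread taken from all 8 libraries, 0.028 from the 3-week libraries alone and 4e-32 with DESeq2.

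Of 9 galectin genes tested, Lgals8 fell and Lgals4, the galectin-4 gene of the gut epithelium, rose in the fit to the 3-week libraries, from 305 and 330 CPM to 406 and 380 CPM (log2 fold change 0.32, edgeR adjusted p 0.022). Lgals3, the galectin-3 gene, which also serves at broken lysosomes, was at 86.0 and 71.9 CPM in WT and 119 and 87.5 CPM in KO. These groups separate by a narrow margin and the difference did not pass (edgeR adjusted p 0.51 in the 3-week libraries). Lgals9, the galectin-9 gene, was at 435 and 473 CPM in WT and 429 and 409 CPM in KO, and it did not pass either (0.31). Per kilobase of exon, the wild-type level of Lgals8 was 9.28 CPM, near that of Lgals12 (8.66 CPM) and Lgals7 (12.5 CPM) and well under Lgals2 (589 CPM), Lgals9 (213 CPM), Lgals1 (151 CPM), Lgals4 (137 CPM) and Lgals3 (42.5 CPM). Lgals7 followed the forestomach rather than the genotype, with 22.9 and 0.377 CPM in WT and 26.8 and 0.592 CPM in KO.

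Across all genes, 3 of 19647 passed an edgeR adjusted p of 0.05 (0.0153% of genes tested), 1 higher and 2 lower in KO, and 1381 had an unadjusted p below 0.05 (7.03%). That fit takes the spread of a gene from all 4 groups, among which the 8-week KO pair had the highest chi-square per degree of freedom between replicates (106, against 32.9 to 38 in the other pairs). A fit to the 4 libraries at 3 weeks called 523 of 18919 genes (2.76%), 258 higher (1.36%) and 265 lower (1.4%), and DESeq2 on all 8 libraries called 180 (0.916%). Of the DESeq2 calls, 128 were among those 523 in the same direction, which is 71.1% of the first list and 24.5% of the second. The count of 523 became 42 without WT replicate 1, 21 without WT replicate 2, 553 without KO replicate 1 and 927 without KO replicate 2. The count of 3 became 0 without any 1 of the 4 libraries at 3 weeks, and 16 and 15 without KO replicate 1 or 2 at 8 weeks. Most calls were small. The median size of a log2 fold change among the 523 was 0.38, and 20 genes were above 1 and 27 below -1. Below, "rose" and "fell" refer to the fit to the 3-week libraries unless all 8 are named, and the members of a list are to be read against its 2.76%. List sizes count the members tested with all 8 libraries, and for some lists fewer were tested in the fit to the 3-week libraries. For all genes tested, the median log2 fold change was 0.003, 50.6% were above 0, and the groups did not overlap in 49.8%, made up of 24.5% with KO higher and 25.3% with KO lower.

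**Figure D2:**
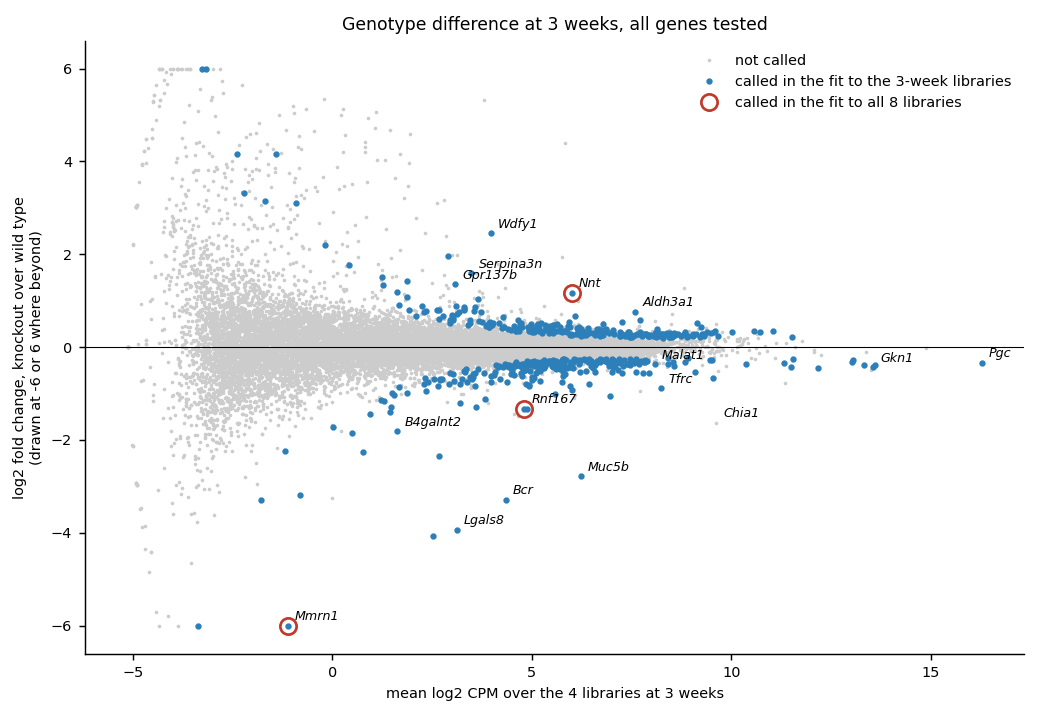
Log2 fold change of KO over WT at 3 weeks against mean log2 CPM for the 19647 genes tested, with blue points for the genes called in the fit to the 3-week libraries and red rings for the 3 called with all 8 libraries. Most blue points lie within 1 of zero, and Wdfy1, Bcr, Lgals8, Muc5b and Mmrn1 lie far outside.

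The 3 genes called with all 8 libraries were Rnf167, Nnt and Mmrn1. Rnf167 (chr11:70647235-70651421), which encodes a ubiquitin ligase of endosomes and lysosomes, was at 42.6 and 46.6 CPM in WT and 17.5 and 18.1 CPM in KO. Every KO value was under each WT value, by 2.51-fold on average (log2 fold change -1.33, SE 0.08, edgeR adjusted p 0.0083). The 8-week libraries showed a log2 fold change of -1.57. Nnt (chr13:119335448-119408997), the mitochondrial transhydrogenase that makes NADPH from NADH, was at 42.9 and 42.5 CPM in WT and 96.3 and 95.7 CPM in KO. That is 2.25-fold higher (log2 fold change 1.17, SE 0.10, edgeR adjusted p 0.030). C57BL/6J mice are known to carry a deletion within Nnt, so a strain difference and the loss of galectin-8 cannot be told apart for this gene. The strain of the null stock is not given, so the same limit applies to every other genotype difference reported here. Mmrn1 (chr6:60924976-60989378), the gene of the platelet and endothelial protein multimerin 1, was at 8.81 and 6.29 CPM in WT and had 0 counts in both KO libraries. With a floor of 3 counts per library it was at least 194-fold lower (edgeR adjusted p 0.015). The Mmrn1 call ended with limma voom (adjusted p 0.19) and without WT replicate 1 or 2 at 8 weeks (edgeR adjusted p 0.12 and 0.11).

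The promoter of Rnf167 is shown because it had the smallest adjusted p of all genes in the fit to all 8 libraries. It is the 250 bases upstream of the RefSeq start on build GRCm38.p6, chr11:70646985-70647234 on the plus strand, read 5′ to 3′, with the 2 matches to TCTCGCGA or its reverse complement TCGCGAGA in capitals. This element was present on either strand in 282 of 32851 RefSeq promoters of that length (0.858%).
Rnf167: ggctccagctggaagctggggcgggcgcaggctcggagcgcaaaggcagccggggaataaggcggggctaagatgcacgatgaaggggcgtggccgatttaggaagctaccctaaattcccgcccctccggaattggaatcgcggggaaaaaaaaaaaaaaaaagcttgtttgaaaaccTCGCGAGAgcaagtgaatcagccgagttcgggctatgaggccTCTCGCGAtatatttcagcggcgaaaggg

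**Figure D3:**
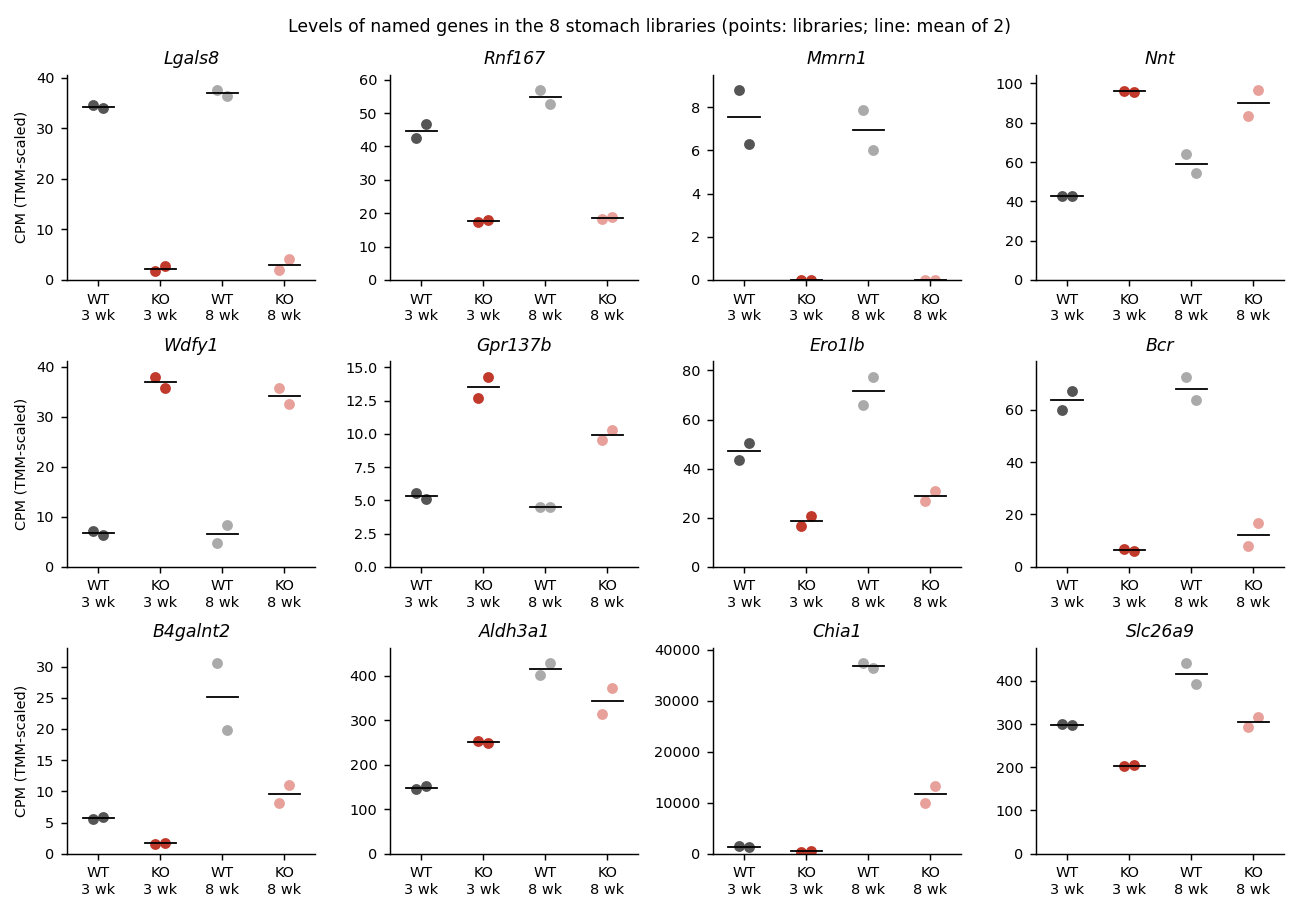
CPM of 12 named genes in each of the 8 libraries (points, with the mean of 2 as a line, axes from 0). At 3 weeks the 2 KO libraries lie on 1 side of the 2 WT libraries in every panel, which was a condition for naming most of these genes. At 8 weeks all but Aldh3a1 keep that side.

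The naming rule took 25 genes, namely Lgals8, the called genes and the 12 smallest p in each direction among genes whose groups do not overlap. Lack of overlap at 3 weeks was thus a condition for those 12 and is no further result. Of the 25 genes, 3 passed with all 8 libraries and 24 in the 3-week libraries, which also took part in the choice. Among the higher ones, Wdfy1, which encodes an endosomal phosphoinositide-binding protein, was at 7.18 and 6.26 CPM in WT and 38 and 35.7 CPM in KO, 5.48-fold higher (edgeR adjusted p 8.3e-06, and 0.056 with all 8 libraries). Gpr137b, a lysosomal membrane protein gene, rose from 5.52 and 5.09 CPM to 12.7 and 14.3 CPM (2.55-fold, edgeR adjusted p 0.0014). Its pseudogene Gpr137b-ps went the other way, from 3.47 and 3.84 CPM to 0.636 and 0.881 CPM (4.81-fold lower, edgeR adjusted p 0.0054). The counts of both are therefore uncertain, and whether reads moved between them was not tested. Rab4a, a GTPase of receptor recycling, was at 8.50 and 9.01 CPM in WT and 17.2 and 14.8 CPM in KO (1.83-fold, edgeR adjusted p 0.0070). Wdfy1, Gpr137b and Rab4a had no overlapping groups, which the rule required.

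Aldh3a1, an aldehyde dehydrogenase gene, was at 145 and 151 CPM in WT and 254 and 248 CPM in KO, 1.70-fold higher (edgeR adjusted p 0.00014). Gpx3, a secreted glutathione peroxidase, went from 90.8 and 88.4 CPM to 118 and 117 CPM (1.31-fold, edgeR adjusted p 0.0076), and Esd, an esterase that acts on S-formylglutathione, from 101 and 100 CPM to 132 in both (1.31-fold, edgeR adjusted p 0.0067). Sult1a1, a phenol sulfotransferase gene, went from 5.58 and 7.07 CPM to 10.5 and 13 CPM (1.86-fold, edgeR adjusted p 0.023). The differences exceed the gap between replicates in all 4 genes. Serpina3n, a serine protease inhibitor gene, rose 3.00-fold, from 6.66 and 6.27 CPM to 16.6 and 22.3 CPM. Slc23a3, Tax1bp3 and the mitotic kinase gene Pbk rose by 2.51-, 1.35- and 1.64-fold.

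Of the named genes that fell, Bcr changed most after Lgals8 and Mmrn1. Bcr, which encodes a signalling protein of the cytoplasm, went from 59.9 and 67.3 CPM to 7 and 6 CPM, 9.77-fold lower (edgeR adjusted p 5.9e-06, and 0.14 with all 8 libraries). B4galnt2, a glycosyltransferase that caps glycans with N-acetylgalactosamine in the gut, went from 5.5 and 5.95 CPM to 1.63 and 1.64 CPM (3.5-fold, edgeR adjusted p 0.0020). Ero1lb, an oxidase of disulfide formation in the endoplasmic reticulum, went from 43.7 and 50.6 CPM to 16.6 and 20.8 CPM (2.52-fold, edgeR adjusted p 0.018). As the rule required, the KO values of these genes lie under all WT values. Slc26a9, a chloride transporter gene of the gastric epithelium, was tight in both groups, at 300 and 297 CPM in WT and 202 and 204 CPM in KO (1.47-fold lower, edgeR adjusted p 0.0011). Slc22a5, the carnitine transporter gene, went from 28.7 and 28.6 CPM to 18.6 and 19.4 CPM (1.51-fold, edgeR adjusted p 0.0063). Vldlr, Hsdl2, Ide and Elp6 fell by 1.65-, 1.45-, 1.74- and 2.17-fold. Chia1, the acidic chitinase gene, was the exception among the 25. It was at 1430 and 1380 CPM in WT and 358 and 550 CPM in KO, 3.09-fold lower, and the gap between the KO libraries left it at an edgeR adjusted p of 0.21 in the 3-week libraries and 0.15 with all 8, while DESeq2 gave 1.1e-14.

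Ero1lb and Gpr137b lie near Lgals8 on chromosome 13. Within 5 Mb on either side of it, 37 genes were tested and 4 passed in the 3-week libraries (10.8%). This compares with 3.31% on the rest of chromosome 13 and 2.66% of the 19647 genes tested with all 8 libraries. The 4 include Gpr137b and Gpr137b-ps, whose counts are uncertain. Groups did not overlap in 54.1% of the window, against 49.8% of all genes tested. In that window 5 genes (13.5%) had a log2 fold change beyond 1 in size, against 8.79% on the rest of chromosome 13 and 6.31% of all genes tested.

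Genes that work with galectin-8 showed no common direction. Of 21 genes of its receptors and partners, 1 rose and 1 fell, the groups did not overlap in 5 (KO higher) and 6 (KO lower), and the median log2 fold change was 0.05. Plaur, the urokinase receptor gene, rose from 7.48 and 7.56 CPM to 12.6 and 13.5 CPM (log2 fold change 0.80, SE 0.10, edgeR adjusted p 0.0079). Tfrc, the transferrin receptor gene, fell from 395 and 428 CPM to 206 and 242 CPM (log2 fold change -0.87, SE 0.09, edgeR adjusted p 0.013). At 8 weeks the change of Tfrc was 0.18 with overlapping groups, and the test of the difference between ages gave an unadjusted p of 0.0061 and an adjusted p of 0.53. The integrin subunits in the list, among them Itgb1 at 0.06 and Itga6 at -0.19, did not pass. Sqstm1, the autophagy receptor p62, was at 202 and 199 CPM in WT and 235 and 225 CPM in KO and missed the threshold (edgeR adjusted p 0.062).

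The 26 genes of lysosome repair and selective autophagy held no call, and their median log2 fold change was 0.04. Ctsl, a lysosomal protease gene, was at 82.0 and 74.5 CPM in WT and 91.4 and 89.8 CPM in KO, and Ulk1, the kinase that starts autophagy, at 87.7 and 96.0 CPM and 75.7 and 80.6 CPM. The groups do not overlap in either gene, and neither passed (edgeR adjusted p 0.10 and 0.096). Among 20 ubiquitin ligases of endosomes and lysosomes, 3 fell and none rose, and the KO libraries were lower without overlap in 12. Beside Rnf167 these were Rnf43, from 34.7 and 33.0 CPM to 25.2 and 23.3 CPM, and Znrf3, from 24.4 and 28.3 CPM to 20.5 and 19 CPM (log2 fold changes -0.48 and -0.41, edgeR adjusted p 0.014 and 0.046). Rnf43 and Znrf3 encode the ligases that remove Wnt receptors from the cell surface.

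**Figure D4:**
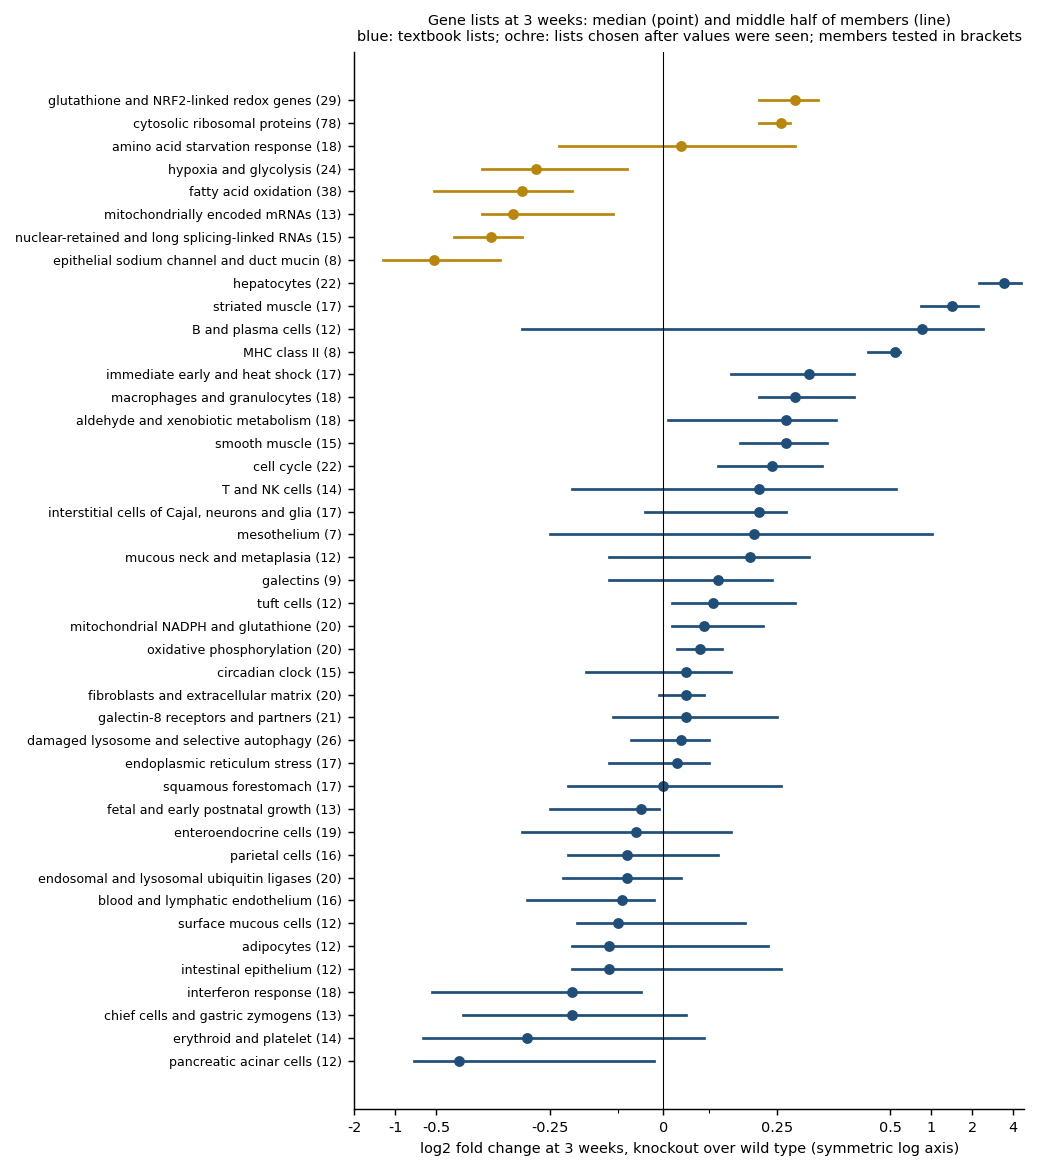
Median log2 fold change at 3 weeks (points) and the range from the lower to the upper quartile of members (lines) for 43 gene lists, on a symmetric log axis, with the number of members tested in brackets. Blue lists are textbook lists and ochre lists were put together after values had been seen, so the side on which an ochre list lies was known when it was made.

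Glutathione and thioredoxin detoxify peroxides and aldehydes at the expense of NADPH, and many of their enzymes are known targets of the transcription factor NRF2. In a list of 29 such genes, put together after values had been seen, 19 rose and none fell, and the median log2 fold change was 0.29. The direction of this list was known when it was made and is not independent evidence. The summed level of the 29 genes was 7370 and 7240 CPM in WT and 8750 and 8780 CPM in KO, and 26 members did not overlap between groups.

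Members of this list that rose are given by step of the pathway. That each step holds some is no further result, because the list was made after values had been seen. For the supply of NADPH, G6pdx, the first enzyme of the pentose phosphate pathway, was at 66.4 and 65.5 CPM in WT and 85.8 and 86.8 CPM in KO (log2 fold change 0.40, SE 0.05, edgeR adjusted p 0.0086). For glutathione synthesis, Gclm went from 47.7 and 48.6 CPM to 60.2 and 60.7 CPM and Gss from 42.4 and 40.6 CPM to 58.7 and 58.0 CPM (log2 fold changes 0.34 and 0.50, edgeR adjusted p 0.016 and 0.0056). Gsr, which regenerates reduced glutathione, went from 101 and 98.0 CPM to 123 and 126 CPM (0.33, edgeR adjusted p 0.015). In these 4 genes the replicates of a group differ by far less than the groups do. Of the enzymes that use glutathione, Gsto1 went from 1380 and 1340 CPM to 1690 and 1750 CPM, Gsta4 from 585 and 565 CPM to 693 and 699 CPM, and Gpx1 from 267 in both to 339 and 313 CPM (log2 fold changes 0.35, 0.28 and 0.30, edgeR adjusted p 0.0084, 0.016 and 0.022). Prdx1, a peroxidase fed by thioredoxin, went from 282 and 301 CPM to 356 and 340 CPM (0.26, edgeR adjusted p 0.031). Nqo1, a quinone reductase and a standard NRF2 target, went from 308 and 302 CPM to 377 and 371 CPM (0.30, edgeR adjusted p 0.014).

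Textbook lists overlap with this group. Of 20 genes of mitochondrial NADPH and glutathione metabolism, 5 rose and 1 fell, and of 18 genes of aldehyde and xenobiotic metabolism, 6 rose and 1 fell. The median log2 fold changes of these 2 lists were 0.09 and 0.27. The gene that fell in the first list was Cat, the catalase gene, from 232 and 236 CPM to 175 and 190 CPM (log2 fold change -0.35, edgeR adjusted p 0.015), and in the second Cyp2s1, a cytochrome P450 gene, from 798 and 824 CPM to 649 and 689 CPM (-0.27, edgeR adjusted p 0.024). At 8 weeks the median log2 fold change of the 29 redox genes was 0.06, with 16 of 29 above 0, 8 higher without overlap and 8 lower without overlap. Lack of overlap at 8 weeks was not counted over all genes. For Gclm the change was -0.28 at 8 weeks (difference between ages -0.61, unadjusted p 0.00081, edgeR adjusted p 0.53) and for Nqo1 -0.24 (difference -0.53, unadjusted p 0.0011, adjusted p 0.53).

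Promoters of 3 redox genes are shown because they hold the core of the antioxidant response element, the sequence that NRF2 is known to bind. The core searched was TGACNNNGC, or GCNNNGTCA on the other strand, in the 250 bases upstream of the RefSeq start on GRCm38.p6. The list matched 24 of 29 genes with 30 promoters, of which 4 held the core (13.3%), against 3338 of 32851 promoters in all (10.2%). The share in the list was near that of all promoters, and a role of NRF2 was not tested. The 3 are read 5′ to 3′ on the strand of the gene, with the core in capitals: Gclm at chr3:122245307-122245556 on the plus strand, Prdx1 at chr4:116685349-116685598 on the plus strand and G6pdx at chrX:74428881-74429130 on the minus strand.
Gclm: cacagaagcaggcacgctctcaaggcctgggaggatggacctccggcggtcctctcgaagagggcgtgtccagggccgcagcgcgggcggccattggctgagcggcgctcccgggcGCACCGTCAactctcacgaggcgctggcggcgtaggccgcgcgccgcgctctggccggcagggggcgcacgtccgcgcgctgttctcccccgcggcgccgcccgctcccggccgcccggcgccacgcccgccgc
Prdx1: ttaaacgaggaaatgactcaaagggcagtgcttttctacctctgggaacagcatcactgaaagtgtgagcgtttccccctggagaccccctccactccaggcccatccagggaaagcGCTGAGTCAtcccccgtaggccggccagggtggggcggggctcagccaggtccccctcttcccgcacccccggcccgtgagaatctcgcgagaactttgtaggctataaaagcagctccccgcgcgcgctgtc
G6pdx: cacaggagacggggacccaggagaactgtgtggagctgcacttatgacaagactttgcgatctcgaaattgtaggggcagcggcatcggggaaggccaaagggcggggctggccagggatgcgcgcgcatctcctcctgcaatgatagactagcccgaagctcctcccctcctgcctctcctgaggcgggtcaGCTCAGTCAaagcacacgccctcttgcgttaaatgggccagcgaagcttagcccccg

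Fatty acids enter mitochondria as carnitine esters and are shortened there, and very long ones are shortened in peroxisomes. In a list of 38 genes of fatty acid oxidation, also put together after values had been seen and so with its direction known, none rose and 9 fell, 32 were lower without overlap, and the median log2 fold change was -0.31. The summed level was 5590 and 6010 CPM in WT and 4220 and 4730 CPM in KO. Hadha, a subunit of the mitochondrial trifunctional protein, went from 490 and 538 CPM to 389 and 429 CPM (log2 fold change -0.32, edgeR adjusted p 0.040). Acsl1, which activates fatty acids with coenzyme A, went from 245 and 270 CPM to 200 and 212 CPM, and Crat, a carnitine acyltransferase gene, from 129 and 134 CPM to 103 and 108 CPM (-0.31 each, edgeR adjusted p 0.027 and 0.020). All 3 genes lie lower in both KO libraries than in either WT library. Pdk4, the kinase that shuts off glucose oxidation, fell from 41.9 and 42.1 CPM to 27.0 and 32.8 CPM (-0.48, edgeR adjusted p 0.046). The lowest members were Acot1 and Acaa1b, at -1.48 and -1.20 in the fit to all 8 libraries, and they did not pass. Acot1 has a close copy, Acot2, so its counts are uncertain. At 8 weeks the median of the list was -0.24, with 25 of 38 genes lower without overlap. For all genes the share lower without overlap at that age was not counted.

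Of 24 genes of hypoxia and glycolysis, a list put together after values had been seen and so with its direction known, none rose and 10 fell, and the median log2 fold change was -0.28 at 3 weeks and 0.06 at 8 weeks. Vegfa, the vascular growth factor gene, went from 84.0 and 92.6 CPM to 58.1 and 64.0 CPM (-0.52, SE 0.07, edgeR adjusted p 0.0093). Pfkp, a phosphofructokinase gene, went from 75.8 and 76.4 CPM to 54.9 and 57.4 CPM (-0.43, edgeR adjusted p 0.0075), and Epas1, the gene of hypoxia-inducible factor 2 alpha, from 150 and 155 CPM to 111 and 123 CPM (-0.38, edgeR adjusted p 0.017). The WT and KO ranges are separate in each. The endothelial genes Kdr, a VEGF receptor, and Cdh5, the cadherin of endothelial junctions, fell by 0.44 and 0.36 on the log2 scale (edgeR adjusted p 0.014 and 0.019). They are 2 of the 3 that fell among 16 endothelial genes, with Mmrn1 the third, while the endothelial gene Plvap was at 154 and 146 CPM in WT and 155 and 135 CPM in KO.

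Of 18 genes of the amino acid starvation response, a list put together after values had been seen, 4 fell and none rose, and their median log2 fold change was 0.04. Trib3 and Chac1, known targets of the stress factors ATF4 and CHOP, went from 4.08 and 3.79 CPM to 1.88 and 2.07 CPM and from 3.58 and 2.65 CPM to 1.16 and 1.14 CPM (edgeR adjusted p 0.032 and 0.021). Nupr1 and Vldlr were the others. Asns, the asparagine synthetase gene and a standard ATF4 target, was at 0.08. Among 17 genes of stress in the endoplasmic reticulum, 3 fell, namely Ero1lb, Ero1l and Trib3, and the median was 0.03.

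Muc5b and subunits of the epithelial sodium channel showed some of the largest decreases. Muc5b, a gel-forming mucin gene of ducts and submucosal glands, was at 183 and 212 CPM in WT and 30.7 and 26.5 CPM in KO (log2 fold change -2.78, SE 0.10, edgeR adjusted p 0.00059). Scnn1b went from 18.3 and 19.7 CPM to 7.36 and 8.23 CPM and Scnn1g from 14.0 and 13.7 CPM to 6.18 and 5.87 CPM (-1.27 and -1.19, edgeR adjusted p 0.0010 and 0.0014). Scnn1a, the third subunit, was at 0.03. In all 3 genes that fell, each KO value was less than each WT value by more than the replicates differ. They belong to a list of 8 genes of sodium channel, duct and chloride transport, put together after values had been seen, of which 6 fell and none rose, with a median of -0.52. At 8 weeks their changes were -0.82, -0.30 and -0.51, with overlapping groups, and the test of the difference between ages gave an unadjusted p of 0.030, 0.051 and 0.29 (edgeR adjusted p 0.55, 0.57 and 0.77). Slc5a5, the iodide transporter gene of the gastric mucosa, fell from 165 and 171 CPM to 116 and 124 CPM (-0.48, edgeR adjusted p 0.0056).

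Calls were spread over the gastric cell types. Of 16 parietal cell genes only the water channel gene Aqp4 fell (-0.35, edgeR adjusted p 0.048), and the median was -0.08. Of 13 genes of chief cells and gastric zymogens, 2 fell and none rose, with a median of -0.20. These were Pgc, given above (-0.33, SE 0.05, edgeR adjusted p 0.014), and Bhlha15, the gene of the secretory transcription factor MIST1, from 52.8 and 54.7 CPM to 43.3 and 36.2 CPM (-0.43, edgeR adjusted p 0.042). Of 12 surface mucous genes, Gkn1 fell from 13700 and 14400 CPM to 10100 and 10700 CPM and Gkn2 from 9410 and 9370 CPM to 7640 and 7840 CPM (-0.42 and -0.27, edgeR adjusted p 0.0062 and 0.016). They encode gastrokines, proteins secreted by these cells. In the same list Anxa10, an annexin gene, rose from 599 and 604 CPM to 760 and 742 CPM (0.33, edgeR adjusted p 0.0086). Of 12 mucous neck and metaplasia genes, Clu and Gpx2 rose (0.32 and 0.43, edgeR adjusted p 0.014 and 0.017) and the median was 0.19. In bulk stomach, fewer cells of a type and less RNA per cell cannot be told apart.

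Of 19 enteroendocrine genes, 3 fell and none rose. Sst, the somatostatin gene of D cells, went from 416 and 419 CPM to 325 and 343 CPM (-0.31, SE 0.05, edgeR adjusted p 0.014), Gcg, the proglucagon gene, from 10.8 and 10.4 CPM to 6.41 and 6.38 CPM (-0.72, edgeR adjusted p 0.014) and Chga, the chromogranin A gene, from 358 and 376 CPM to 315 and 310 CPM (-0.22, edgeR adjusted p 0.040). Ghrl, the ghrelin gene, was at 1050 and 1100 CPM in WT and 1010 and 1030 CPM in KO and did not pass. The 8-week changes of Sst, Gcg and Chga were -1.15, -2.08 and -0.77. For Sst the difference between ages had an unadjusted p of 0.00020 and an edgeR adjusted p of 0.53.

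All 4 adult globin genes fell, with Hbb-bs at 73.1 and 68.2 CPM in WT and 38.8 and 44.8 CPM in KO and Hba-a1 at 66.7 and 70.5 CPM and 43.5 and 46.1 CPM (-0.75 and -0.61, edgeR adjusted p 0.0062 and 0.0024). Globin copies are nearly identical in sequence, so their separate counts are uncertain. The summed level of 14 erythroid and platelet genes was 214 and 210 CPM in WT and 133 and 142 CPM in KO. Of 18 macrophage and granulocyte genes, 3 rose and 12 were higher without overlap. C1qa, a complement gene of tissue macrophages, went from 28.9 and 27.9 CPM to 36.5 and 39.0 CPM and Lyz2, the lysozyme gene of myeloid cells, from 52.5 and 49.7 CPM to 67.9 and 71.4 CPM (0.42 and 0.46, edgeR adjusted p 0.017 and 0.0086). Among 8 genes of MHC class II presentation, 7 were higher without overlap and none passed, with a median of 0.54 at 3 weeks and 1.56 at 8 weeks. The invariant chain gene Cd74 was at 87.0 and 96.7 CPM in WT and 116 and 152 CPM in KO. Igha, the IgA heavy chain gene, was near its floor in WT, at 0.135 and 0.0251 CPM, and at 1.11 and 1.94 CPM in KO (edgeR adjusted p 0.045). The 18 interferon response genes held no call, with a median of -0.20 at 3 weeks and 1.63 at 8 weeks. Among 22 cell cycle genes 15 were higher without overlap and none passed, with a median of 0.24 and a summed level of 537 and 547 CPM in WT and 603 and 596 CPM in KO.

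Of 78 cytosolic ribosomal protein genes, 56 rose and none fell, and 76 were higher without overlap. Their summed level was 22100 and 22000 CPM in WT and 26800 and 25600 CPM in KO, with a median log2 fold change of 0.26. Rpl32, for example, was at 248 and 244 CPM in WT and 327 and 313 CPM in KO (0.39, edgeR adjusted p 0.0067). Their processed pseudogenes share sequence with them, so single genes are uncertain. Of the 13 mRNAs of the mitochondrial genome, 6 fell and none rose, and the sum was 41300 and 43000 CPM in WT and 34200 and 32100 CPM in KO. The complex I subunit gene mt-Nd4 went from 3320 and 3360 CPM to 2490 and 2510 CPM (-0.41, edgeR adjusted p 0.0027). The 20 oxidative phosphorylation genes of the nucleus held no call and had a median of 0.08. Of 15 RNAs known to be kept in the nucleus or tied to splicing, 12 fell and none rose. Malat1 went from 311 and 307 CPM to 234 and 244 CPM and Leng8 from 103 and 94.2 CPM to 67.6 and 71.4 CPM (-0.36 and -0.50, edgeR adjusted p 0.0086 and 0.0079). These 3 lists were made after values had been seen.

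The genotype change at 3 weeks also varied with transcript length. When protein-coding genes were split by exon length into 5 bins of equal number, the median log2 fold change at 3 weeks ran from 0.09 in the shortest (204 to 2570 bases) through 0.04, -0.01 and -0.04 to -0.09 in the longest (7827 to 123179 bases). In the shortest bin 5.46% of genes rose and 1.63% fell, and in the longest 0.439% rose and 3.11% fell. KO replicate 1 went from 0.11 to -0.10 and KO replicate 2 from 0.07 to -0.07 across the bins, while each WT library stayed within 0.01 of the WT mean. The order from short to long was the same without ribosomal protein genes, and at 8 weeks the 5 medians lay between -0.05 and 0.00. The part of length in the changes of ribosomal protein, redox, mitochondrial and nuclear RNAs was not tested.

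Set against the 8-week libraries, which are separate samples, 420 of the 523 genes called at 3 weeks (80.3%) had the same sign, against 59.1% of all genes tested. Of the 523, 19 passed at 8 weeks in the same direction, where 0.326% of all genes passed. The 8-week p-values take their spread from all 8 libraries. The 3-week replicates that entered the choice of genes thus enter these p-values too, and passing at 8 weeks is no independent check. Of the 25 named genes, 21 kept their sign and were apart without overlap in the same direction, and 7 passed at 8 weeks. The share of all genes without overlap at 8 weeks was not counted, so the 21 have no such share beside them. No gene passed the edgeR test of the difference between the genotype changes at 3 and 8 weeks, and 1727 of 19647 (8.79%) had an unadjusted p below 0.05. DESeq2 called 175 for the same difference. Aldh3a1 was the named gene with the smallest unadjusted p for that difference. Its 8-week levels were 414 ± 18 CPM in WT and 343 ± 41 CPM in KO (SD, n = 2), against 148 ± 4.1 and 251 ± 4.1 CPM at 3 weeks. Elp6, an Elongator subunit gene, was 2.17-fold lower at 3 weeks and had a log2 fold change of 0.03 at 8 weeks (difference 1.15, unadjusted p 0.0020, edgeR adjusted p 0.53).

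**Figure D5:**
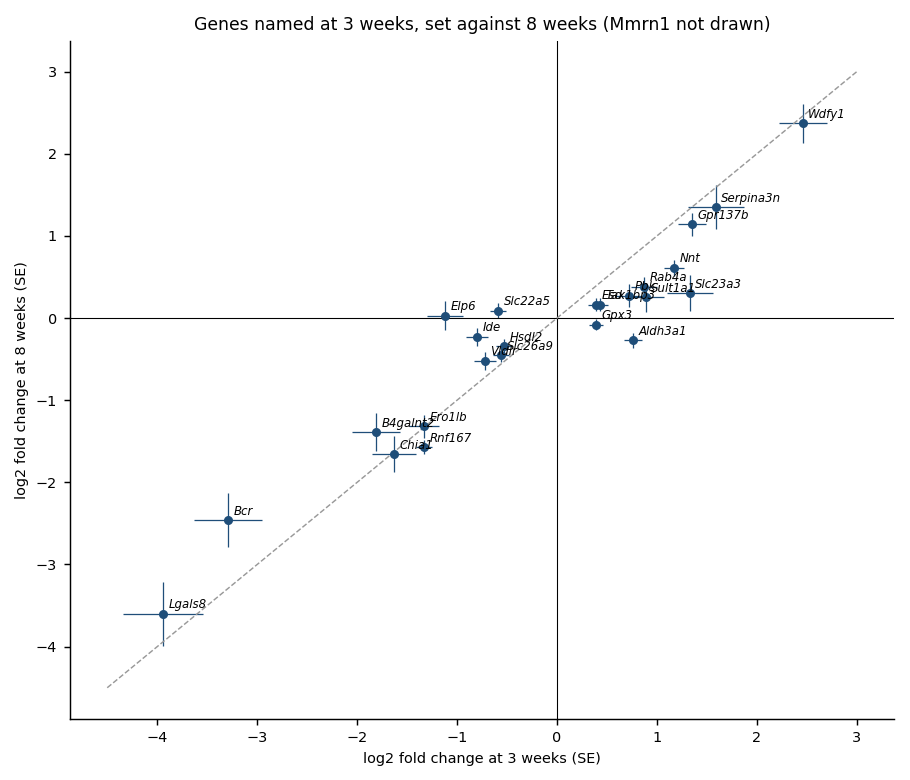
Log2 fold change at 8 weeks against that at 3 weeks for 24 of the 25 named genes, with SE from the fit to all 8 libraries and the line of equal change (dashed). Most genes lie in the quadrants of equal sign, and Aldh3a1 lies at 0.76 and -0.27.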

How the data were processed

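Polyadenylated RNA of mouse stomach was sequenced from both ends, per the labels' protocols. The authors deposited a single table of whole-number counts with an Ensembl ID per line. The submitters' processing notes name bcl2fastq, STAR 2.7.9a, Subread with featureCounts 2.0.3, and build GRCm38. Which annotation release and strand setting they used is not given in the sources used here, and overlapping genes and near-identical copies have uncertain counts for that reason. Of 40757 lines, 40481 had distinct gene IDs. The 276 repeats carried the same counts as the first line and were dropped, and 26 symbols turned into dates were restored from the ID. Positions come from GENCODE M21 on the same build, which held 40340 of the IDs, and promoters from RefSeq on GRCm38.p6.

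Counts were fitted in R 4.3.3 with edgeR 4.0.16 (filterByExpr, trimmed mean of M values, robust quasi-likelihood, 1 mean per group, all 8 libraries, 4 residual degrees of freedom). P-values were adjusted by Benjamini-Hochberg over all genes tested, with a threshold of 0.05. The same model on the 4 libraries at 3 weeks (2 residual degrees of freedom), DESeq2 1.42.0, voom of limma 3.58.1, other scalings and filters, and fits without 1 library were the alternatives. Levels are CPM, and a fold change compares group means. Counts range from 58851837 to 80686621 per library, and the floor of 3 counts covers counting error only. An exact permutation test of 2 against 2 libraries cannot give a two-sided p under 0.333, so none was used. The fitting steps were tested on simulated counts.

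Genes named in full are Lgals8, each gene past the threshold with all 8 libraries, and the 12 smallest p in each direction among genes whose mean log2 CPM reaches 1 and whose groups do not overlap, leaving out predicted genes, pseudogenes and antigen receptor segments. From each textbook list, members with the smallest p and the highest level were taken as well, and all galectins. Other genes named were chosen after their values were seen. The members, the 35 textbook lists and the rule were chosen with earlier results of these data known, and 8 further lists after values had been seen. Some genes that the comparison called are not reported here.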

Additional observations from a re-analysis of the deposited data

Results flagged for a closer look

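In Aldh3a1 and Slc22a5 every KO library lay on 1 side of the WT libraries at 3 weeks and on the other side at 8 weeks, where neither change passed. The log2 fold change of Aldh3a1 was 0.76 at 3 weeks and -0.27 at 8 weeks, with an unadjusted p of 7e-05 and an edgeR adjusted p of 0.53 for the difference. For Slc22a5 it was -0.59 at 3 weeks and 0.09 at 8 weeks (unadjusted p 0.00053, edgeR adjusted p 0.53). Neither difference passed over all genes. All groups hold 2 libraries, so no test for a library that stands apart within its group was made.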

How the results depend on the processing

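The count of 3 genes was 180 with DESeq2 (86 higher, 94 lower), 7 with limma voom, 23 with no filter, 7 without robust dispersions, 523 with the 3-week libraries only (258 higher, 265 lower), and 3 or 4 under other scalings and the stricter filter. It ran from 0 to 16 in the fits without 1 library, and each of the 4 libraries at 3 weeks, when left out, took it to 0. The count of 523 ran from 21 to 927 without 1 library (42 and 21 without WT_3wk replicate 1 and replicate 2, 927 without KO_3wk replicate 2), and its split became 383 higher and 170 lower without KO_3wk replicate 1. Of the 25 named genes, 3 passed. This became 25 with DESeq2, 6 with voom, 15 with no filter, 7 without robust dispersions, 24 with the 3-week libraries only and 0 to 11 without 1 library. All 25 kept their sign under every alternative. The test of the difference between ages called 0 genes, 175 with DESeq2 (92 and 83) and 0 to 419 without 1 library, with 419 and 121 without KO_8wk replicate 1 and replicate 2. Of the 35 textbook lists, 23 had a median above 0, and 17 to 25 did so across the alternatives.

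With the replicate number as a block, 3 genes passed (0 higher, 3 lower), and Nnt no longer did (adjusted p 0.085). In the 3-week libraries alone the replicate block, added after the data were seen, called 1384 (706 higher, 678 lower). The deviations of WT_3wk and KO_3wk replicate 1 from their group means had r = 0.606 over 13185 genes. With 2 libraries per group this is a single relation, so it cannot decide whether the libraries share more than a number. The number was taken from the sample titles. The library names of WT_3wk and KO_3wk carry the same number, while those of the later age do not. The squamous forestomach and smooth muscle sums of the 3-week libraries also divide by this number. What lies behind it was not tested.

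With 2 libraries per group, changes under about 1.5-fold pass only where replicates are very close, and a gene that did not pass may still differ.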

Other observations

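The remaining cell type and process lists held 0 to 3 calls each at 3 weeks in the fit to the 3-week libraries, where 2.76% of all genes passed. Of 12 tuft cell genes Lrmp rose (log2 fold change 0.44), and of 12 intestinal epithelial genes Lct, the lactase gene, rose from 1.39 and 1.37 CPM to 4.47 and 3.42 CPM (1.52, SE 0.22, edgeR adjusted p 0.013). Lct was also higher at 8 weeks (2.36), without overlap between the groups. The intestinal genes Sis and Cdx2 were listed at 0 in all 4 libraries. Of 12 pancreatic acinar genes Clps, the colipase gene, fell from 11300 and 12400 CPM to 8500 and 9550 CPM (-0.39, edgeR adjusted p 0.034). The list had a median of -0.45. Clps made up most of its summed level, which was 11500 and 12500 CPM in WT. Cpa1 was at 0 and 0.0251 CPM in WT, and Amy2a5 and Cuzd1 were listed at 0 in all 4 libraries. Of 7 mesothelial genes Msln, the mesothelin gene, rose from 0.339 and 0.452 CPM to 1.47 and 2.19 CPM (2.21, edgeR adjusted p 0.016).

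Of 17 immediate early and heat shock genes, Junb and Hspa1b rose (0.34 and 0.48) and Jun fell (-0.34), with a median of 0.32 and 11 members higher without overlap. Of 15 circadian clock genes Clock fell (-0.31) and Tef rose (0.26). Of 13 genes of fetal and early postnatal growth Plagl1 fell (-0.33). No member passed among 12 adipocyte, 14 T and NK cell, 17 neuronal, glial and interstitial cell, or 20 extracellular matrix genes, with medians of -0.12, 0.21, 0.21 and 0.05. Of the 14 T and NK cell genes, 11 were tested in the 3-week libraries. Apart from Igha no gene passed among 12 B and plasma cell genes (median 0.86). Ighm was at 32.8 CPM in KO replicate 1 against 8.78 to 10.6 CPM in the other 3-week libraries.

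Outside the lists, and chosen after their values were seen, Zbtb16, a transcription factor gene known to respond to glucocorticoids, rose from 4.08 and 3.57 CPM to 17.9 and 12 CPM (1.97, SE 0.22, edgeR adjusted p 0.017) and was at -0.02 at 8 weeks. Spp1, the osteopontin gene, fell from 171 and 188 CPM to 92.5 and 81.3 CPM (-1.04, SE 0.07, edgeR adjusted p 0.0011) and was at -1.11 at 8 weeks. Duoxa2, the maturation factor of a hydrogen peroxide-producing oxidase, rose from 9.09 and 8.47 CPM to 15.9 and 20.3 CPM (1.05, edgeR adjusted p 0.0086). Lgr5, a receptor gene of gastric and intestinal stem cells, fell by 0.78 on the log2 scale.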
